A study of Mus musculus with 15 samples.

Results

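The comparison described here set Stat5 siRNA cells that had received interleukin-3 (IL-3) for 2 h against control siRNA cells that had received IL-3 for the same time. Its members were chosen by array title, and they came to 6 of the 15 arrays of the series, with 1 array a side on each of the 3 murine Affymetrix designs U74A, U74B and U74C. All cells were Ba/F3-beta, a mouse pro-B cell line that needs IL-3 to survive and divide. The Stat5 siRNA cells carried a mixture of siRNAs against Stat5a and Stat5b, and the control cells carried a scrambled siRNA. The other 9 arrays held Stat5 siRNA cells at 30 min of IL-3, control siRNA cells at 30 min of IL-3 and control siRNA cells without IL-3. Stat5 siRNA cells that had received no IL-3 were not analysed here, so what the siRNA did before the cytokine was added and what it did to the response to the cytokine cannot be told apart. Each side had 1 array per design. No difference below has a replicate check and no p-value is given, and a change is named by its size alone.

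IL-3 binds a receptor whose associated kinase JAK2 phosphorylates STAT5A and STAT5B, a pair of closely related transcription factors that then dimerise, enter the nucleus and bind DNA. In blood cells they are known for switching on feedback inhibitors of cytokine receptors such as Cish, and survival genes such as the PIM kinases and Bcl2l1. Interferons act through other factors, among them STAT2 and IRF9, whose complex binds a different element, the interferon-stimulated response element. The aim of the study was to identify target genes of STAT5 in the IL-3 response.

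Values are MAS5 signals, an arbitrary brightness unit read per probe set, which is a group of probes for 1 transcript. A probe set counted as measured where at least 1 of its 2 arrays reached a floor of 119.87, and lower signals were raised to the floor before the log2 ratio of Stat5 siRNA over control siRNA was taken. A ratio with 1 raised signal is a bound and is written as "at least". The value of a gene is the median log2 ratio over its measured probe sets. Between the sides, the log2 signals of probe sets that reached the floor on both arrays correlated at 0.974 on U74A, 0.948 on U74B and 0.959 on U74C, across probe sets, which are not independent. Pairs of probe sets of 1 gene gave an SD for a single log2 ratio of 0.22 on U74A, 0.24 on U74B and 0.31 on U74C. Of the 75 pairs within U74C 4% lay 2-fold or more apart, against 0.535% of the 187 within U74A. The pairs held no probe set that can cross-hybridise and no signal under the floor, so they do not cover changes read from those. The 17 control probe sets found on all 3 designs gave a median SD of 0.15 between designs. These spreads are technical, and none of them measures how separate cultures differ.

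Both genes aimed at by the siRNAs read lower on the Stat5 siRNA arrays. The brighter Stat5a probe set gave a signal of 255 in Stat5 siRNA cells and 475 in control siRNA cells at 2 h, and 277 and 548 at 30 min. The other gave 96.5 in Stat5 siRNA cells and 254 in control siRNA cells at 2 h. Both Stat5a probe sets are of a kind that can cross-hybridise. Stat5b gave 126 in Stat5 siRNA cells and 177 in control siRNA cells at 2 h, against 166 and 499 at 30 min. For Stat5b the sides were thus closer at 2 h than at 30 min, and its 2 h difference stood on signals near the floor. Its control level was itself lower at 2 h. In control siRNA cells the log2 ratio of IL-3 over no IL-3 for Stat5b was -0.10 at 30 min and -1.60 at 2 h.

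By gene, 41 of 8132 measured genes were 2-fold or more higher with Stat5 siRNA (0.504%) and 35 were 2-fold or more lower (0.43%). The median log2 ratio was 0.00, and 95% of genes lay between -0.64 and 0.65. Of the 41 higher genes 18, and of the 35 lower genes 14, had a signal under the floor on 1 side, so their ratios are bounds. Genes with a U74A or U74B probe set gave 20 higher (0.302%) and 19 lower (0.287%) of 6615. Genes read only on U74C gave 21 higher (1.38%) and 16 lower (1.05%) of 1517, so the noisiest design gave about as many calls from far fewer genes. Of the 20 higher genes on U74A or U74B, 10 were on lists of interferon-response genes and 15 were on some list, and of the 19 lower genes 6 were on a list, 5 of them the list of STAT5 targets. None of the 37 called genes read only on U74C was on any list. Of the 8132 measured genes, 38 were on the interferon lists and 22 on the list of STAT5 targets. The shares of all measured genes, and of genes read only on U74C, that were on any list were not counted. The lack of listed genes among the U74C calls is thus a description only. The lists were drawn up with earlier results of these data known.

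**Figure D1:**
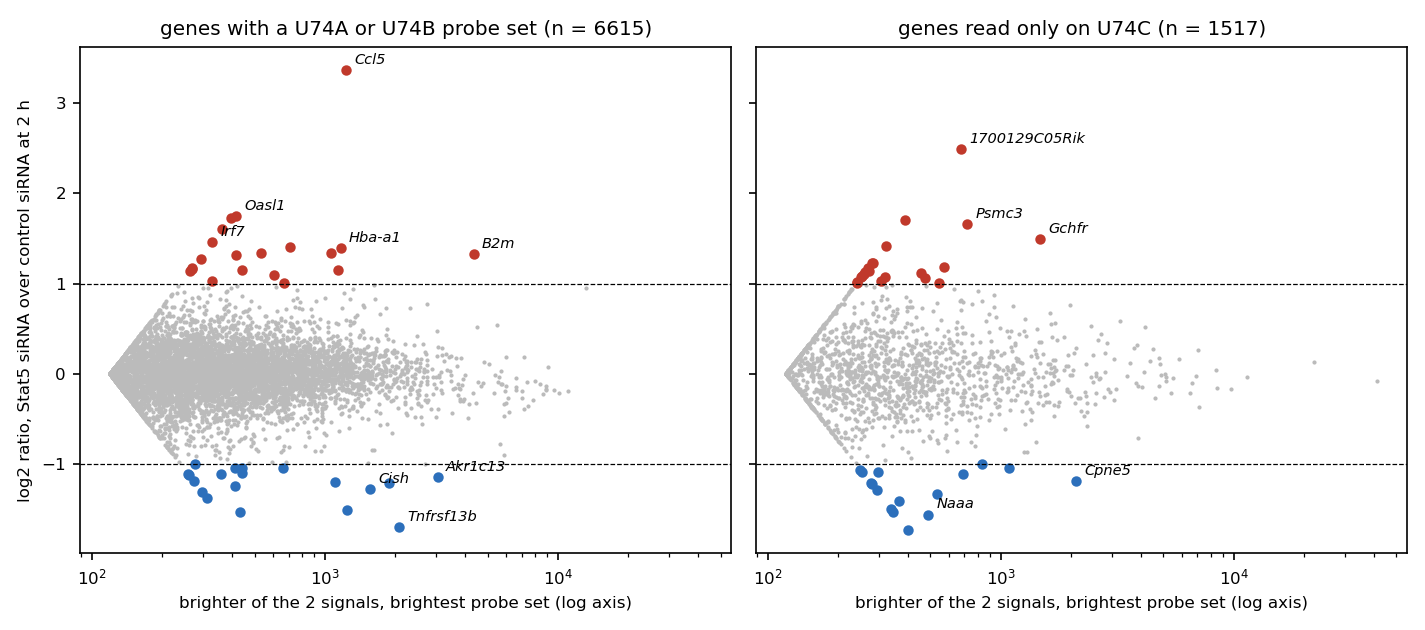
Each point is a gene, with the brighter of its 2 signals at 2 h on a log x axis and the log2 ratio of Stat5 siRNA over control siRNA on the y axis, 1 array a side and design. Red points are 2-fold or more higher and blue points 2-fold or more lower with Stat5 siRNA, and dashed lines mark 2-fold. The wedge at the left is the floor, which keeps any gene with a brighter signal under 2 times the floor from reaching 2-fold. Ccl5, at least 10.3-fold higher, stands farthest from 0.

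Among the lower genes stood the feedback inhibitor Cish, the kinase Pim2 and the receptor Tnfrsf13b, all from the list of STAT5 targets. Of 22 measured genes on the list of STAT5 targets known in blood cells, 5 were 2-fold or more lower and 0 higher. Over all measured genes 0.43% were lower and 0.504% higher by this much. The median of the list was -0.39, against 0.00 over all measured genes, and 18 of the 22 lay below 0. The list was drawn up with earlier results of these data known, so its direction is no independent evidence.

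Cish, an SH2 protein that STAT5 induces and that dampens cytokine receptor signalling, gave a signal of 645 in Stat5 siRNA cells and 1565 in control siRNA cells at 2 h, a log2 ratio of -1.28. At 30 min it gave 389 and 1097, and unstimulated control cells gave 108, under the floor. Stat5 siRNA cells at 2 h thus stood at least 5.38-fold above the unstimulated control array, where control siRNA cells stood at least 13.1-fold above it. Bhlhe40, a basic helix-loop-helix repressor, gave 816 in Stat5 siRNA cells and 1889.9 in control siRNA cells at 2 h, and 485 and 1143 at 30 min, beside 347 without IL-3. Like Cish it was lower at both times, and at 2 h it stood 2.35-fold above the unstimulated control array in Stat5 siRNA cells against 5.44-fold in control siRNA cells.

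Tnfrsf13b, which encodes TACI, a B cell receptor for the survival factors BAFF and APRIL, showed the largest fall among genes on U74A or U74B. Its signal was 643 in Stat5 siRNA cells and 2090.5 in control siRNA cells at 2 h, a log2 ratio of -1.70. At 30 min it was 918 and 1345, and without IL-3 it was 954. With Stat5 siRNA it therefore lay below the unstimulated level at 2 h, where control siRNA cells were above it. Pim2, a survival kinase, gave 198 in Stat5 siRNA cells and 411 in control siRNA cells at 2 h, with all 3 other arrays under the floor. Slfn2, a Schlafen protein of lymphocyte quiescence, was read from 2 probe sets of the kind that can cross-hybridise. The brighter gave 58.0 in Stat5 siRNA cells and 414 in control siRNA cells, at least 3.45-fold lower, and the other was at least 1.62-fold lower, which makes the gene at least 2.37-fold lower.

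The remaining targets on the list did not reach 2-fold. Dusp5, a phosphatase that inactivates ERK, had a log2 ratio of -0.84, with 888 in Stat5 siRNA cells and 1593 in control siRNA cells. The cell cycle inhibitor Cdkn1a had -0.80, the survival gene Bcl2l1 -0.46 and the transcription regulator Id1 -0.35. Other well-known targets lay near 0, with Pim1 at -0.06, Mcl1 at -0.04 and Socs2 at 0.08. Myc had 0.51, with 482 in Stat5 siRNA cells and 339 in control siRNA cells. The differences of 2-fold or more thus lay in 5 of the 22 members. Socs1, a feedback inhibitor of JAK kinases, gave 57.7 in Stat5 siRNA cells and 128 in control siRNA cells at 2 h. The first of these is under the floor and the second barely above it, so its ratio is not resolved at 2 h, while at 30 min Socs1 was at least 2.31-fold lower.

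Promoter sequence is shown for Cish because it alone of the lower genes on U74A or U74B had a STAT motif match in the window searched. The windows are those of RefSeq on GRCm38.p6, from 250 bases before to 50 bases after the gene's start, printed 5′ to 3′ along the gene, and capitals mark the motif. The Cish window is chr9:107296409-107296708 on the plus strand and holds 2 matches to TTCNNNGAA, which reads the same on both strands.
Cish: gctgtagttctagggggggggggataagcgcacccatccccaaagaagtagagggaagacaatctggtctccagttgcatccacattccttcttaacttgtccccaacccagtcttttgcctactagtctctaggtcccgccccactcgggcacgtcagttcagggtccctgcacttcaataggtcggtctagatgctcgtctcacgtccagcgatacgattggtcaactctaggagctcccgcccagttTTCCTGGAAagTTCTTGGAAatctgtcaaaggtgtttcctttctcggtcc
Of all 32851 windows 8.30% held this motif. Of the 27 lower genes with a window 3 held it, or 11.1%, and of the 16 on U74A or U74B 1 did. Of the 14 measured genes of the STAT5 list with a window Cish was the 1 with a match. Matches further from the start were not searched, and a match is a description and not a binding site.

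Beyond that list, the lower genes included further receptors. C3ar1, the receptor for the complement fragment C3a, gave 93.5 in Stat5 siRNA cells and 313 in control siRNA cells at 2 h, at least 2.61-fold lower. At 30 min it gave 68.6 and 200.3, and Stat5 siRNA cells were under the floor at both times. Il2rb, a subunit of the IL-2 and IL-15 receptors, gave 166 in Stat5 siRNA cells and 359 in control siRNA cells. Lgr4, a receptor for R-spondins, gave 484 in Stat5 siRNA cells and 1110.0 in control siRNA cells, while at 30 min both sides stood close together at 315 and 362. Gpr137 gave 150 in Stat5 siRNA cells and 432 in control siRNA cells, beside 489 without IL-3. Il4ra, a subunit of the IL-4 and IL-13 receptors, stayed short of 2-fold at -0.87 at 2 h and -0.78 at 30 min. Lgr4 and Il2rb were near or below their unstimulated level with Stat5 siRNA and above it with control siRNA, a pattern they shared with Tnfrsf13b.

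S100a4, a calcium-binding protein of motile cells, differed by as much at both times. Its signal was 439 in Stat5 siRNA cells and 1248 in control siRNA cells at 2 h, 399 and 1040.2 at 30 min, and 1412 without IL-3. IL-3 moved it little in control cells, and both Stat5 siRNA arrays lay under all 3 control arrays. The other 3 measured members of the S100 list lay between -0.38 and -0.13, and S100a14, which the list does not hold, was also called lower. Akr1c13, an aldo-keto reductase, behaved otherwise. It gave 1385 in Stat5 siRNA cells and 3061 in control siRNA cells at 2 h, but 1786 and 1795 at 30 min and 1808 without IL-3, so its difference appeared at 2 h only among these arrays and was not tested.

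The rest of the lower genes on U74A or U74B were dim or differed less. Fads6 was at least 2.49-fold and S100a14 at least 2.29-fold lower, both from probe sets that can cross-hybridise. Trio, a guanine nucleotide exchange factor, was at least 2.19-fold lower and Tmem54 at least 2.17-fold lower. Kazn had -1.10 and Lama5, a laminin chain, -1.01. Pogk and Sct, each at -1.05, lay outside the rule for naming genes and are given to complete the 19. Both probe sets of Sct are of the cross-hybridising kind, with ratios of -1.43 and -0.67. Xbp1, a transcription factor of the secretory pathway, stayed just short of 2-fold at -0.99 at 2 h and -0.97 at 30 min, with 777 in Stat5 siRNA cells and 1539 in control siRNA cells at 2 h.

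**Figure D2:**
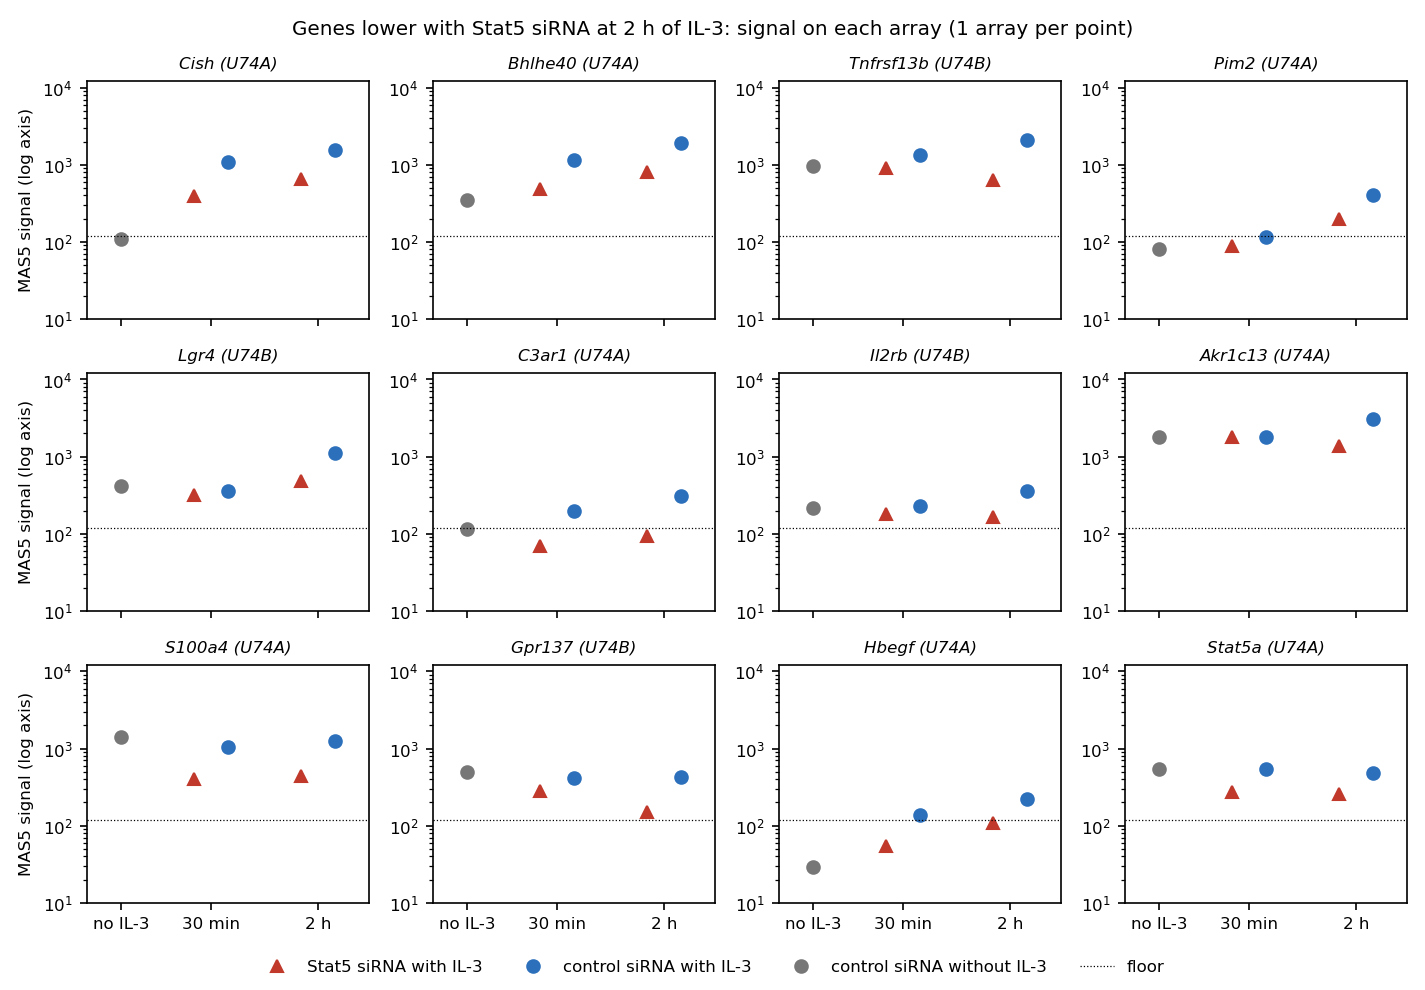
MAS5 signal on a log y axis for 1 probe set of each of 12 genes that were lower with Stat5 siRNA at 2 h, with time of IL-3 on the x axis and 1 array per point. Red triangles are Stat5 siRNA, blue circles control siRNA with IL-3, grey circles control siRNA without IL-3, and the dotted line is the floor of 119.87. Cish, Bhlhe40 and S100a4 were apart at both times, and Lgr4 and Akr1c13 at 2 h.

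The higher genes were led by the interferon response. Of 38 measured genes on the 4 interferon lists combined, 10 were 2-fold or more higher with Stat5 siRNA and 0 lower, and 36 lay above 0. Over all measured genes 0.504% were higher and 0.43% lower by this much, and 50.5% lay above 0. The median log2 ratio of the 38 was 0.51, against 0.00 over all measured genes, and 14 of the 38 had a signal under the floor. At 30 min, on arrays not used at 2 h, the median was 0.45 over 36 measured genes. The lists were likewise drawn up with earlier results known.

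Of the sensors and enzymes that act on viral RNA, the oligoadenylate synthetases had a median of 1.34 over 5 measured genes. Oasl1 gave 416 in Stat5 siRNA cells and 124 in control siRNA cells at 2 h, 547 and 255 at 30 min, and 161 without IL-3. Oas2 gave 533 in Stat5 siRNA cells and 211 in control siRNA cells at 2 h, 439.7 and 187 at 30 min, and 202 without IL-3. Oasl2 gave 396 in Stat5 siRNA cells, while all 3 control arrays were under the floor, at least 3.31-fold higher. Ddx58, the RNA sensor RIG-I, gave 1136 in Stat5 siRNA cells and 512 in control siRNA cells at 2 h. For these 4 genes each Stat5 siRNA array lay above every control array.

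Irf7, the transcription factor that amplifies interferon production, was the 1 gene of 2415 with at least 2 measured probe sets of which every one passed 2-fold. Its U74A probe set gave 329 in Stat5 siRNA cells at 2 h and 447 at 30 min, and between 38.5 and 44.2 on the 3 control arrays. Its U74C probe set, which can cross-hybridise, gave 7271 in Stat5 siRNA cells and 1224 in control siRNA cells at 2 h. Irf9 and Stat2, which act in 1 complex downstream of the interferon receptor, did not reach 2-fold, at 0.65 and 0.58.

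Among membrane and antigen presentation genes, Bst2, the antiviral tether tetherin, gave 1069 in Stat5 siRNA cells and 423 in control siRNA cells at 2 h, and 981 and 434 at 30 min. B2m, the light chain of MHC class I, gave 4355 in Stat5 siRNA cells and 1741 in control siRNA cells at 2 h, 3789 and 1931 at 30 min, and 3051 without IL-3. The control level of B2m with IL-3 thus lay below that without it, and Stat5 siRNA cells lay above both. Of 14 measured MHC class I presentation genes only B2m reached 2-fold, while 13 lay above 0 with a median of 0.46. H2-D1, an MHC class I heavy chain, had 0.73 and Psmb9, an immunoproteasome subunit, 0.72. H2-D1 was read from 3 probe sets that can cross-hybridise, all of them higher, at 0.56 to 0.93.

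Gbp7, an interferon-inducible GTPase, gave 708 in Stat5 siRNA cells and 266 in control siRNA cells at 2 h, and 370 and 284 at 30 min, so the sides stood farther apart at 2 h. Irgm1 was at least 2.25-fold higher. Parp14 had 1.15 and Parp9 1.09. Samd9l, an interferon-inducible gene on none of the lists, gave 671 in Stat5 siRNA cells and 334 in control siRNA cells and is named after its value was seen. Lgals3bp and Ifi27 stayed just short of 2-fold at 0.95 and 0.93. Other well-known members lay near 0, such as Eif2ak2, the kinase PKR, at 0.05 and Ifitm3 at 0.03. Isg15, a ubiquitin-like modifier, gave 166 in Stat5 siRNA cells and 66.2 in control siRNA cells, which the floor limits to at least 1.39-fold higher. Tor3a was the lowest member at -0.84, but its probe sets disagreed, with -1.41 on U74C and -0.26 on U74B.

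Ccl5, a chemokine that draws T cells and monocytes, showed the largest difference of all measured genes. It gave 1239 in Stat5 siRNA cells at 2 h and 1660.0 at 30 min, against 44.7 and 61.4 in control siRNA cells and 42.8 without IL-3. All 3 control arrays were under the floor, which makes it at least 10.3-fold higher at 2 h. The 3 other measured chemokines lay between -0.19 and 0.09 at 2 h, but the values of Ccl9, at -0.19, and Cxcl12, at -0.04, are bounds. At 30 min Ccl9 had -1.07, also a bound. Gcc2, Jade2 and Nacc1, at 1.32, 1.27 and 1.03, were higher genes on U74A or U74B that no list held. At 30 min they had -1.35, 0.13 and -0.03, so none of them was clearly higher at both times. Nacc1 lay outside the rule for naming genes and is given to complete the 20.

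**Figure D3:**
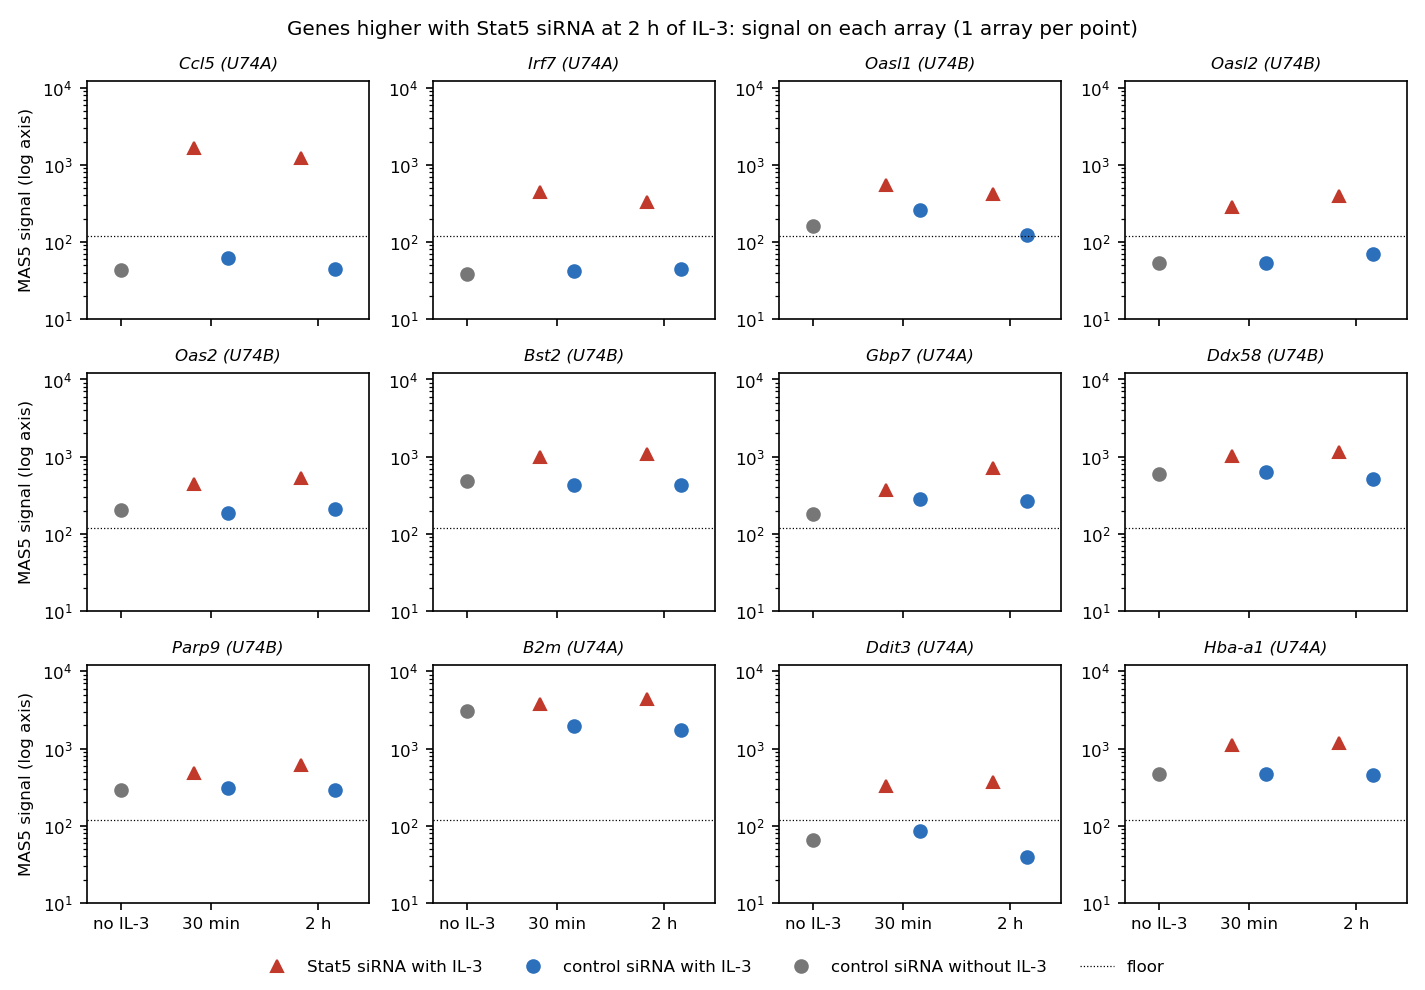
MAS5 signal on a log y axis for 1 probe set of each of 12 genes that were higher with Stat5 siRNA at 2 h, with time of IL-3 on the x axis and 1 array per point. Red triangles are Stat5 siRNA, blue circles control siRNA with IL-3, grey circles control siRNA without IL-3, and the dotted line is the floor of 119.87. Both Stat5 siRNA arrays of Ccl5 and Irf7 lay above the floor and all 3 control arrays under it.

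Promoter windows of 4 higher genes are shown because they hold the interferon-stimulated response element, searched on both strands as 2 copies of GAAA with any 2 bases between them. Capitals mark the matches, which overlap in Bst2 and Irgm1. The windows are chr8:71537423-71537722 on the minus strand for Bst2, chr3:142530086-142530385 on the plus strand for Gbp7, chr11:48871371-48871670 on the minus strand for Irgm1 and chr2:122147437-122147736 on the plus strand for B2m.
Bst2: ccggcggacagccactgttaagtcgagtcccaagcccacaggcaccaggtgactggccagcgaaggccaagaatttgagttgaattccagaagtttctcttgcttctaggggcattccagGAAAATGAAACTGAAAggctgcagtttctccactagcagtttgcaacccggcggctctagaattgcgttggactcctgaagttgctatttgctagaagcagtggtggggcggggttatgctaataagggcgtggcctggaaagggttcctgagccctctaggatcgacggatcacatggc
Gbp7: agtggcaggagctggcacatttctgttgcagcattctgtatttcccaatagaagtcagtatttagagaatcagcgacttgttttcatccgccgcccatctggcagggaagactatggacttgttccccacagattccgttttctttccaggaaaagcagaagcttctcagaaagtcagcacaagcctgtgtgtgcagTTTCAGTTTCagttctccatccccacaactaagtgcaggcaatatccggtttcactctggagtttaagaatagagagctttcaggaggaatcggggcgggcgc
Irgm1: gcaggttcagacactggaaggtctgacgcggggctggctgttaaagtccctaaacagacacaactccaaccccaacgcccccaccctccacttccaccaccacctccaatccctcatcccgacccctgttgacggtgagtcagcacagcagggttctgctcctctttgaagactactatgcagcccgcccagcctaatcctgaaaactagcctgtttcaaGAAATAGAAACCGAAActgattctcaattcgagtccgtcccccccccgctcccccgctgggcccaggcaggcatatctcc
B2m: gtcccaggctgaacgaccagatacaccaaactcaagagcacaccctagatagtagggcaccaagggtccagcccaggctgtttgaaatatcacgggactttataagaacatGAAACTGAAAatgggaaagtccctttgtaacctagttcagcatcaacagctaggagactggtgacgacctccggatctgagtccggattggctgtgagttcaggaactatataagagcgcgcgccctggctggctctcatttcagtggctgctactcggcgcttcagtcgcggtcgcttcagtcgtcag
The element was found in 3.44% of all windows and in 3.51% of those of measured genes. Among the higher genes on U74A or U74B with a window it was found in 5 of 14, or 35.7%, with Ddx58 as the other one. Among all higher genes with a window it was found in 6 of 32, or 18.8%, with Fcnaos, read only on U74C, added. Among measured genes of the interferon lists it was found in 14 of 32, or 43.8%. None of the 27 lower genes with a window held it, 16 of which were on U74A or U74B. The interferon lists hold 10 of the 20 higher genes on U74A or U74B and 0 of the 21 read only on U74C, and these shares name no factor. The STAT motif was found in 2 of the 14 higher genes on U74A or U74B with a window, or 14.3%, once in the Bst2 window and at 2 places in that of Gbp7, and in 9 of 32 genes of the interferon lists, or 28.1%. Over all higher genes with a window the STAT motif was found in 3 of 32, or 9.38%.

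A smaller set of stress genes was also higher. Ddit3, which encodes CHOP, gave 364 in Stat5 siRNA cells and 39.6 in control siRNA cells at 2 h, at least 3.04-fold higher, and 329.6 and 85.0 at 30 min. Trib3, a pseudokinase induced by ATF4 and CHOP, gave 263 in Stat5 siRNA cells and 61.0 in control siRNA cells at 2 h, with every other array under the floor. Of 12 measured ATF4 and CHOP stress factors these 2 were higher and 0 lower, 11 lay above 0 and the median was 0.53. Over all measured genes 0.504% were 2-fold or more higher and 50.5% lay above 0. Atf4 itself had 0.59, with 1236 in Stat5 siRNA cells and 820.5 in control siRNA cells. Ddit4, an inhibitor of mTORC1, had 0.89 and the translation inhibitor Eif4ebp1 0.91. Genes of amino acid synthesis and transfer RNA charging, many of which ATF4 is known to induce, had 0 of 27 past 2-fold but 21 above 0, with a median of 0.32. Slc1a4 had 0.75, Mthfd2 0.73 and Slc7a1 0.72. Genes of the unfolded protein response and protein folding in the endoplasmic reticulum lay the other way, with 12 of 16 below 0, a median of -0.21 and Xbp1 the lowest.

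Hba-a1, which encodes alpha globin, gave 1172 in Stat5 siRNA cells and 447 in control siRNA cells at 2 h, 1103 and 471 at 30 min, and 467 without IL-3. Of 11 measured globin and erythroid genes it alone reached 2-fold, while 10 lay above 0 with a median of 0.30, among them Hbb-y, at least 1.97-fold higher from a probe set that can cross-hybridise, and Nfe2 at 0.59. Hemgn, a nuclear protein of blood-forming cells, was at least 2.24-fold higher. In a bulk sample more cells of a type and more RNA per cell cannot be told apart. Summed over the brightest probe set of each gene on the erythroid list, the signal was 7343 in Stat5 siRNA cells and 5402 in control siRNA cells at 2 h, and 6509 without IL-3. Of this list 11 of 20 genes reached the floor in Stat5 siRNA cells and 9 in control siRNA cells. Alas2, Car1, Car2 and Epb42 were among those under the floor on both sides. The pro-B label was not borne out by many markers at 2 h. There 2 of 18 pro-B and B cell markers, Ptprc and Bank1, reached the floor on each side, and the defining markers Cd79a and Pax5 did not. Cd79b was just under the floor at 2 h, at 108 in Stat5 siRNA cells and 92.9 in control siRNA cells. It reached the floor on the other arrays, at 140 and 144 at 30 min and 162 without IL-3. Myeloid and mast cell markers reached the floor in 3 of 21 with Stat5 siRNA and 4 with control siRNA, and T and NK cell markers in 2 of 16 on each side, mostly through Gzmb, which encodes granzyme B, at 5488 in Stat5 siRNA cells and 6014 in control siRNA cells. The part of other cells in these results was not tested.

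Gene groups of growth and division differed little between the sides. Ribosome biogenesis genes, of which IL-3 raised 17 of 42 past 2-fold in control siRNA cells at 2 h, had 0 of 43 past 2-fold with Stat5 siRNA, and they lay between -0.44 and 0.35 with a median of 0.08. The 36 G1/S genes had a median of 0.01 and the 36 G2/M genes of 0.00, with none past 2-fold. Cytosolic ribosomal protein genes lay slightly low, with 23 of 27 below 0 and a median of -0.16. On the IL-3 receptor and JAK-STAT list only Cish of 26 measured genes reached 2-fold, and Stat5a was at least 1.99-fold lower. Jak2 had -0.25 and the receptor chains Csf2rb and Il3ra had -0.22 and 0.05. Hk1, the hexokinase that opens glycolysis, was the lowest of 19 glycolysis genes at -0.91, with 3141 in Stat5 siRNA cells and 5885 in control siRNA cells, although the list's median was -0.05.

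**Figure D4:**
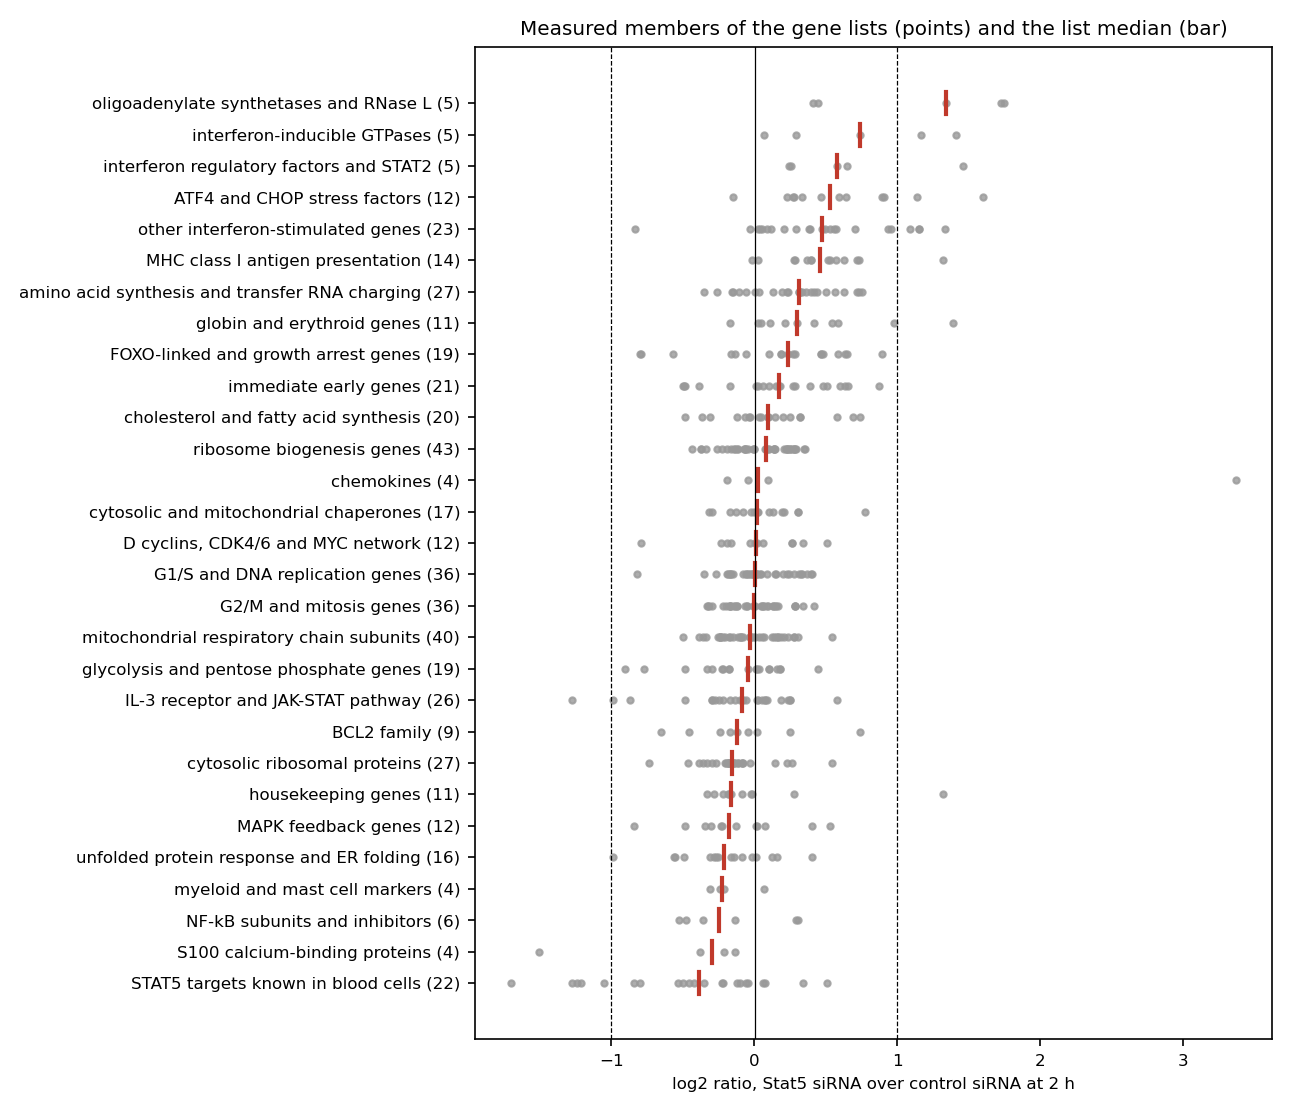
Each row is a gene list with at least 4 measured genes, with the number measured in brackets. Grey points are the log2 ratios of its genes at 2 h, Stat5 siRNA over control siRNA, and red bars the list medians. Dashed lines mark 2-fold and the solid line the median of all measured genes. The oligoadenylate synthetase list had the highest median, 1.34, and the STAT5 target list the lowest, -0.39.

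The siRNA ratio at 30 min shares no array with that at 2 h. By gene, 25 of 8124 measured genes were 2-fold or more higher at 30 min (0.308%) and 31 lower (0.382%). Of the 20 genes on U74A or U74B that were higher at 2 h, 19 were measured at 30 min, 17 lay above 0 there, 12 were at 0.5 or more and 8 at 2-fold or more. Over all such genes 2.32% were at 0.5 or more. Of the 19 lower genes 15 were measured at 30 min, 13 lay below 0, 7 were at -0.5 or less and 3 at 2-fold or more, against 2.61% of all such genes at -0.5 or less.

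The genes read only on U74C differed from this. Of the 20 higher ones measured at 30 min 11 lay above 0 and 1 reached 2-fold, and of the 16 lower ones 8 lay below 0 and 1 reached 2-fold. Over all genes read only on U74C, 49.5% lay above 0 at 30 min. The largest of them were 1700129C05Rik, at least 5.62-fold higher at 2 h and -0.37 at 30 min, and Ces1d, at least 3.34-fold lower at 2 h and -0.17 at 30 min. Naaa, Zfpm2, Syt4 and Nlrp9b had the next largest falls, at -1.56, -1.53, -1.50 and -1.41, and Amhr2, Psmc3, Gchfr and 2310026I22Rik the next largest rises, at 1.70, 1.66, 1.49 and 1.42. Naaa also had a U74B probe set that can cross-hybridise, at -0.46. The Zfpm2, Syt4, Amhr2 and 2310026I22Rik values are bounds. Psmc3, a proteasome subunit, is read from 1 U74C probe set at 719 in Stat5 siRNA cells and 228 in control siRNA cells, while its 3 other measured probe sets, which can cross-hybridise, lay within 1.26-fold. 6430571L13Rik was lower on both of its U74C probe sets, at -1.70 and -0.96.

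Over both times, 9 genes were 2-fold or more higher at each and 4 lower at each, of 7699 measured at both. The higher ones were Ccl5, Oasl1, Oasl2, Oas2, Irf7, Bst2, Ddit3, Hba-a1 and Grid1, and the lower ones Cish, Bhlhe40, S100a4 and 1700113H08Rik. Grid1 and 1700113H08Rik were read only on U74C, and the 1700113H08Rik value came from a probe set that can cross-hybridise.

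**Figure D5:**
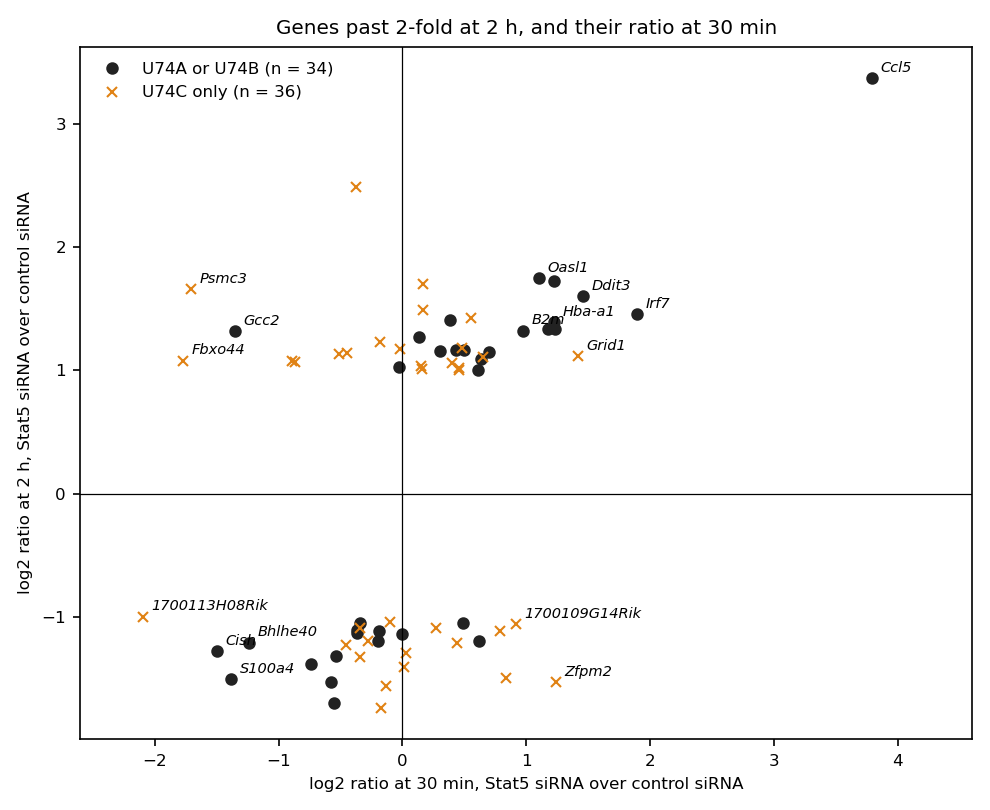
Each point is a gene 2-fold or more apart at 2 h, with its log2 ratio of Stat5 siRNA over control siRNA at 30 min on the x axis and at 2 h on the y axis. Black circles are the 34 genes read on U74A or U74B and orange crosses the 36 read only on U74C. Black circles lie mostly in the upper right and lower left, and crosses lie on both sides of 0 on the x axis.

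Agreement among probe sets of a gene was counted for the called probe sets. Of 125 called probe sets with 1 gene symbol, out of 84 higher (0.631%) and 75 lower (0.564%) of 13308 in all, 55 belonged to a gene with another measured probe set. Every other probe set had the same sign for 11 of 17 called on U74A or U74B and for 13 of 38 called on U74C. The median of the others was at least 0.5 the same way for 9 of the 17 and 5 of the 38. All others passed 2-fold for 1 of the 17 and 1 of the 38. Shares over all measured probe sets were not counted, so these counts are a description only. By a rule added after the data were seen, 14 of 674 genes with at least 3 measured probe sets had all of them at 0.3 or more the same way, 9 higher and 5 lower. Hbegf, a growth factor for the EGF receptor, was lower on 4 probe sets, 2 of which give bounds, at least 2.17-fold and at least 1.86-fold lower. The others had -0.89, from a probe set that can cross-hybridise, and -0.49. The last of these gave 161 in Stat5 siRNA cells and 227 in control siRNA cells on U74B. Fam3c, a secreted protein, was lower on 3 probe sets at -0.64 to -0.40. The brighter of its measured U74A probe sets gave 1708 in Stat5 siRNA cells and 2669 in control siRNA cells, and the other gave 746 and 983. Aopep, an aminopeptidase, had a median of -0.86 over 4, among them a U74A probe set that can cross-hybridise, at -1.11. The higher genes included H2-D1, Bmp2k, Col5a1, Ubxn4, Ddx6 and Phf10, with medians of 0.73, 0.69, 0.54, 0.47, 0.46 and 0.46. Enah, an actin regulator, did not meet this rule but stood just under 2-fold lower as a gene. Its brightest probe set gave 1207 in Stat5 siRNA cells and 2686 in control siRNA cells at 2 h, and 2 dim ones had -0.30 and, as a bound, -0.05.

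The study's own selection asked for genes that IL-3 raised and Stat5 siRNA lowered. In control siRNA cells 203 of 8294 measured genes were 2-fold or more higher at 2 h of IL-3 than without it (2.45%) and 135 lower (1.63%). Of the 203 genes raised by IL-3, 18 were 2-fold lower with Stat5 siRNA and 0 higher, with a median siRNA log2 ratio of -0.20. Of 123 lowered by IL-3 and measured in both comparisons, 10 were higher and 0 lower with Stat5 siRNA, with a median of 0.42. Over all measured genes 0.43% were 2-fold or more lower and 0.504% higher with Stat5 siRNA. The control array at 2 h stands in both ratios, so a high or low reading on it alone moves them in opposite directions and these counts are a description only. Of the 18 genes 11 had a U74A or U74B probe set and 7 were read only on U74C, and of the 10 genes 1 had a U74A or U74B probe set and 9 were read only on U74C. The series' design text gives 29 putative targets at 2 h, under filters that were not applied here. Cish, Bhlhe40, Tnfrsf13b, Pim2, Lgr4, Kazn, C3ar1, Fads6, Slfn2, Trio and Lama5 were the 11.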

How the data were processed

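The deposited values were linear probe set intensity values that the authors computed with MAS5, per the submitters' processing notes and the series' design text. They had already been brought to 1 level, with a trimmed mean (2% left out at each end) of 150.04 to 150.1 on every array. Arrays were scaled to 1 shared trimmed mean. The floor was the signal that 14553 of 36701 non-control probe sets, the number passing the filters in the design text, reached on the highest of their 5 arrays. Detection calls were not used here. Gene names came from the platform annotation, which paired 29131 probe sets with 1 symbol, 724 with several and 6846 with none. Probe sets with several symbols gave no gene name. Probe sets that can cross-hybridise (suffixes _f_at, _r_at, _i_at and _x_at) entered only where a gene had no other measured probe set. S100a14, Gchfr and Syt4, for example, were read from such probe sets while a probe set of another kind stayed under the floor. Changes were called at 2-fold. With 1 array per side and design no test was possible, and precision is limited by the number of arrays.

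Named were Stat5a and Stat5b, the 15 largest rises and falls among genes on U74A or U74B, the 5 largest of each among genes read only on U74C, genes whose probe sets (at least 2) all passed 2-fold one way, genes past 2-fold at both times, genes raised by IL-3 and lowered by the siRNA, and of each of the 32 gene lists the 4 members with the largest ratios and all past 2-fold. The genes, lists and rule were chosen with earlier results of these data known. Calculations used Python 3.11.15 with numpy 2.4.6 and pandas 2.3.3 and were tested on simulated data. Alternatives in scaling, floor, probe set summary, probe set type, design and threshold were tried.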

Additional observations from a re-analysis of the deposited data

Results flagged for a closer look

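In 4 genes the ratio of Stat5 siRNA over control siRNA passed 2-fold one way at 2 h and the other way at 30 min. The difference between the times was not tested. The log2 ratios at 2 h and 30 min were 1.66 and -1.71 for Psmc3 and 1.32 and -1.35 for Gcc2. They were 1.08 and -1.77 for Fbxo44 and -1.53 and 1.24 for Zfpm2, where all 4 ratios have a signal under the floor and are bounds, at least 2.11-fold higher and at least 3.41-fold lower for Fbxo44, and at least 2.89-fold lower and at least 2.36-fold higher for Zfpm2. The gene values of Fbxo44, Psmc3 and Zfpm2 came only from U74C, and that of Gcc2 from a U74B probe set that can cross-hybridise. Psmc3 was also measured on U74A by probe sets that can cross-hybridise, which did not enter its value. They had 0.24, -0.08 and -0.33 at 2 h and -0.01, 0.03 and 0.21 at 30 min, so they did not show the reversal.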

How the results depend on the processing

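No paired analysis was possible because each group had 1 array per design. The counts of higher and lower genes, 41 and 35, depended on the floor and the threshold. They were 114 and 111 with the floor halved, 14 and 16 with it doubled, and 136 and 131 with signals not raised to it. On U74A and U74B only they were 22 and 20. Leaving out cross-hybridising and _s_at probe sets together gave 23 lower genes. At 1.5-fold they were 274 and 256, and at 3-fold 7 and 2. Leaving signals unraised also moved the median of the interferon lists to 0.81, beside 0.51 as reported. Psmc3 changed sign, to -0.082, on U74A and U74B only. Of 50 called genes that the rule names, 19 still passed 2-fold with the floor doubled, 48 with median scaling and 49 with quantile normalization. Signals near the floor limit what the dimmer genes can show.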

Other observations

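A few probe sets outside the naming rule, picked out after their values were seen, differed at both times of IL-3. A U74C probe set of Pirb, an inhibitory receptor of B and myeloid cells, gave a signal of 628 in Stat5 siRNA cells and 1963 in control siRNA cells at 2 h, and 563 and 2044 at 30 min. It can cross-hybridise, and the U74A probe set of Pirb, at 79.0 in Stat5 siRNA cells and 121 in control siRNA cells at 2 h, was too dim to be called. A U74C probe set of Snrpc, a subunit of the U1 splicing particle, that can also cross-hybridise gave 2268 in Stat5 siRNA cells and 461 in control siRNA cells at 2 h, and 1897 and 448 at 30 min. Unstimulated control cells gave 1719 on it, close to the Stat5 siRNA arrays. Another U74C probe set of Snrpc gave 376 in Stat5 siRNA cells and 416 in control siRNA cells at 2 h, and the U74A probe set of Snrpc gave 525 in Stat5 siRNA cells and 506 in control siRNA cells at 2 h.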
